A study of Mus musculus with 2 samples.

Results

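Cytosolic ribosomal protein genes were examined in liver RNA of mice whose kidneys had been injured. The members were taken by name only, without use of any measured value. They are the probe sets whose platform annotation names exactly 1 gene, with a current symbol that starts with Rpl or Rps followed by a digit, or is Rplp0, Rplp1, Rplp2 or Rpsa. Pseudogene symbols and the Rps6k kinases were dropped. This gave 106 probe sets for 50 genes, 24 with small subunit names and 26 with large subunit names, of 18193 genes on the array. No probe set for Rplp1, Rpl3, Rpl5 or Rps27a met the rule, so these genes are not analysed here.

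The study compared livers of male wild-type C57BL/6 mice, 8 weeks old. The renal ischaemia-reperfusion injury (IRI) group underwent bilateral warm renal ischaemia for 30 minutes and then reperfusion. Sham-operated mice were the controls. At 24 hours the livers were collected, and 100 mg of frozen tissue from 3 mice per group was pooled. Each pool was read on 1 Affymetrix array, so there are 2 samples, no replicates, and no test, error or p-value, and every difference below describes these 2 pools.

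The cytosolic ribosome translates nearly all cellular mRNA. Its small subunit holds the mRNA and reads the codons, and its large subunit joins the amino acids and passes the growing chain through an exit tunnel. Each subunit is an RNA core that carries many small proteins, mostly 1 copy of each, so the cell makes these proteins in matched amounts. Many vertebrate ribosomal protein mRNAs begin with a terminal oligopyrimidine (TOP) tract, a C followed by an unbroken run of C and T in the DNA, through which mTORC1 signalling adjusts their translation. Hepatocytes carry many ribosomes because they export large amounts of plasma protein.

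The sequences around the transcription start were searched for features that the choice by name did not use, and many members, but not all, held them. RefSeq start sites (build GRCm38.p6) were found for 44 of the 50 genes, as 52 promoters of 300 bases each. The stretch from 10 bases before the start to 20 bases after it was searched on the gene's strand for a C followed by at least 5 further bases that are C or T. A tract anywhere in this stretch counted, so it need not begin at the annotated start. Such a tract stood in 26 of 52 member promoters, against 22.0% of 32851 promoters of all genes and 24.0% of 75 promoters of mitochondrial ribosomal proteins. The 7 windows below hold a tract, in capitals, and were chosen to span members that were much higher and members that were not. The Rplp0 window is shown as a strongly higher member without one. Base 11 of each window is the annotated start.
Rpl35 at chr2:39005112-39005141, minus strand: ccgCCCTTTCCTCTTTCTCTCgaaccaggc
Rpl13a at chr7:45128726-45128755, minus strand: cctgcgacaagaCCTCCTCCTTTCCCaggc
Rpl38 at chr11:114668570-114668599, plus strand: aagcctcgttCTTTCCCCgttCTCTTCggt
Rps18 at chr17:33955646-33955675, minus strand: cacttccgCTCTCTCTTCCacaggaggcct
Rpl7a at chr2:26910797-26910826, plus strand: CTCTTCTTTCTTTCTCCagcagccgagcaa
Rpl27a at chr7:109519185-109519214, plus strand: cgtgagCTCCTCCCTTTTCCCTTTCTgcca
Rps6 at chr4:86857348-86857377, minus strand: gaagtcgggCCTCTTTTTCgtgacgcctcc
Rplp0 at chr5:115559457-115559486, plus strand: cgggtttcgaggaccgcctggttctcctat

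In the whole promoters, from 250 bases before to 50 bases after the start, the letters CCGGAAG on either strand, the core bound by ETS family factors such as GABP, were in 21 of 52 member promoters (40.4%), against 8.86% of all promoters and 34.7% of those of mitochondrial ribosomal proteins. Where CCGGAAG lies on the opposite strand it reads CTTCCGG, and its pyrimidines can overlap a tract. Matches were also more frequent than among all promoters for GGGCGG, the Sp1 box (53.8% against 35.7%), and AAGATGG, part of the YY1 site (15.4% against 6.34%), but not for TATAAA (11.5% against 13.6%). The 5 windows below run from 50 bases before to 10 bases after the start, with the CCGGAAG match in capitals, and come from genes of both subunits. A match describes letters in this window and not a bound site.
Rpl19 at chr11:98026660-98026719, plus strand: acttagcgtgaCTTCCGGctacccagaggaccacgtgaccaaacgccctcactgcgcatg
Rpl38 at chr11:114668530-114668589, plus strand: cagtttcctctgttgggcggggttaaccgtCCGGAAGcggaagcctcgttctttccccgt
Rps10 at chr17:27635235-27635294, minus strand: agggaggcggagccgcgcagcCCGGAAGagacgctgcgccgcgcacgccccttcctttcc
Rps3a1 at chr3:86142659-86142718, minus strand: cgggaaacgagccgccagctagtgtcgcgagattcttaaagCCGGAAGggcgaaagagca
Rps7 at chr12:28635944-28636003, minus strand: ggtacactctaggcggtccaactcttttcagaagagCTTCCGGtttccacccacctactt

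Ribosomal protein mRNAs of both subunits were modestly higher in the renal ischaemia-reperfusion pool than in the sham pool, most of them by a similar amount. With each gene read by its brightest probe set and no filter on dim signals, 45 of the 50 genes had a higher signal after renal ischaemia-reperfusion (90.0%), where 49.4% of all 18193 genes did. The median log2 difference, taken as log2 of the signal plus 16 in the renal ischaemia-reperfusion pool minus that in the sham pool, was 0.63, a 1.55-fold difference. The median over all genes was -0.01. The summed signal of the 50 genes was 1.62 times that of the sham pool. In bulk liver, a change in how many cells of a type are present and a change in RNA per cell cannot be told apart.

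The differences were narrow as well as shifted. The quartiles of the 50 genes were 0.42 and 0.86, a width of 0.43, against a width of 0.87 over all genes. At a 1.5-fold threshold, 27 of the 50 genes were higher, where 19.0% of all genes were. At a 2-fold threshold only 6 were higher, close to the 9.18% of all genes that pass it, and 1 was lower, where 9.99% of all genes are. These counts use the measured signals, and Rps4l among the 6 and Rps19bp1 as the 1 are held under 2-fold by the bounds given below. The ribosomal protein genes therefore stand out by a small difference shared among most of them, not by large ones.

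**Figure D1:**
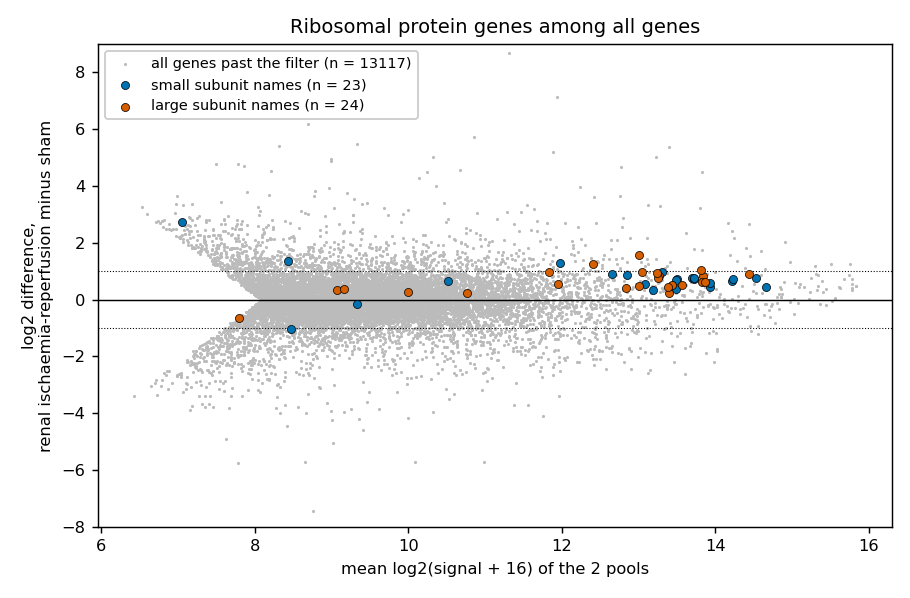
Log2 difference (renal ischaemia-reperfusion minus sham) against the mean log2 signal of the 2 pools for 13117 genes, with 23 genes of small subunit names in blue and 24 of large subunit names in orange. Dotted lines mark 2-fold, and most members form a tight group above 0 at high signal while genes around them spread on both sides.

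A gene was taken further when the brighter of its 2 signals reached the median of that array (254.1 in the renal ischaemia-reperfusion pool and 257.0 in the sham pool), which 47 members did. The other 3, Rps16, Rpl14 and Rpl39l, had signals between 27.0 and 44.2 in the renal ischaemia-reperfusion pool and between 13.4 and 49.0 in the sham pool, so no fold is given. Of the 47, 44 were higher (background 49.3%), a count that includes genes that could pass only through their brighter pool. By the brightest probe set, both signals of 43 members reached the array medians, and 42 of these 43 were higher, with a median of 0.66. Among all genes measured on both arrays 49.1% were higher. Of the 43, 4 were at least 2-fold higher (background 5.14%), 0 at least 2-fold lower (background 6.17%) and 25 at least 1.5-fold higher (background 14.8%). The 4 others, Rps4l, Rps25, Rpl3l and Rps19bp1, had 1 signal under the median and their folds are bounds.

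Within the middle range of member signals, high signal alone did not go with a difference. The quartiles of mean signal over the 47 members were about 3980 and 13500. The 544 other genes in that range had a median log2 difference of -0.06, and 47.1% of them were higher and 11.6% at least 2-fold higher. All 23 members in that range were higher, with a median of 0.76. Members outside that range, among them the brightest, were not compared with other genes of their signal. The highest signal on the array was 85966 (IRI) and 55427 (sham). The median of the 47 members was 0.66, against 0.48 by quantile normalization and 0.63 with a loess trend removed. Whether the differences of the brightest members go with their signal was not tested.

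**Figure D2:**
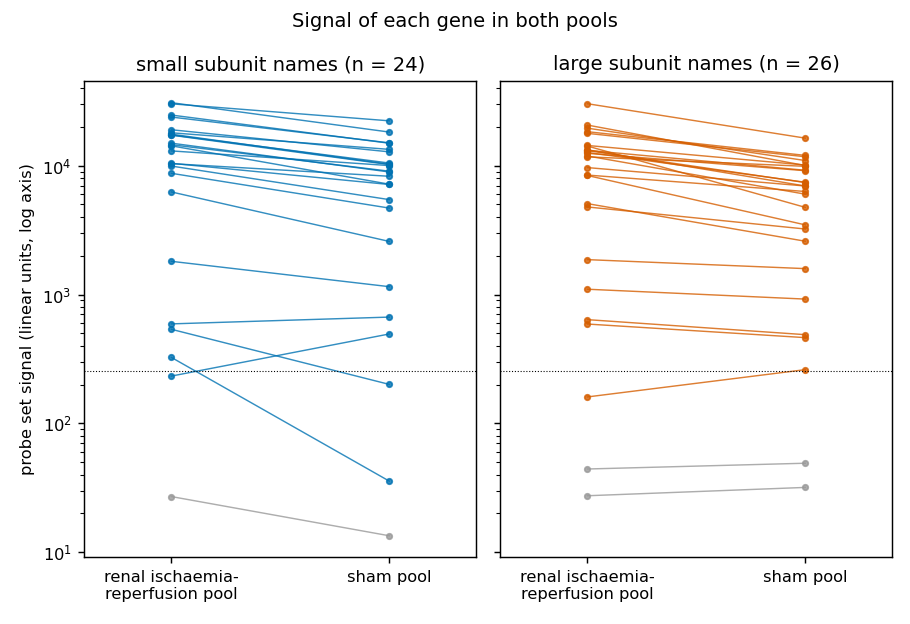
Signal of each of the 50 genes in the renal ischaemia-reperfusion pool (left) and the sham pool (right) on a log axis, for small subunit names (24 genes) and large subunit names (26 genes). Each line is 1 gene by its brightest probe set, grey lines are genes under the filter, the dotted line is the mean of the 2 array medians, and nearly all bright lines slope the same way.

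Small and large subunits differed little from each other. Past the filter, the 23 genes with small subunit names had a median of 0.72 and the 24 with large subunit names a median of 0.58, a gap of 0.14. The ranges between quartiles overlapped, with 0.49 to 0.82 for small and 0.41 to 0.90 for large subunit names. On the small subunit side 21 of 23 genes were higher, and on the large side 23 of 24 (background 49.3%). With all 50 genes the gap was 0.16, and with genes measured on both arrays it was 0.10.

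Among small subunit genes measured on both arrays, Rps19 differed most by the brightest probe set of each gene. Rps19, needed to mature the small subunit and the first gene found mutated in human Diamond-Blackfan anaemia, had a signal of 6257 in the renal ischaemia-reperfusion pool and 2584 in the sham pool, 2.41-fold higher. Rps26, which lines the path by which mRNA leaves the small subunit, had signals of 14271 (IRI) and 7187 (sham), 1.98-fold higher. Rpsa, a small subunit protein also described as the laminin receptor precursor, had 9939 after renal ischaemia-reperfusion and 5455 after sham surgery (1.82-fold). Rps19, Rps26 and Rpsa were all among the higher small subunit genes. This order depends on the probe set, and Rps19 is read by only 1. Another Rps18 set had 17665 (IRI) and 6211 (sham), 2.84-fold higher, against 1.69-fold by the brightest Rps18 set. The 3 probe sets of Rps3 lay between 0.54 and 1.54 in log2 difference.

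A broad middle group followed. Rps4x, the X-linked form of Rps4, had 17576 in the renal ischaemia-reperfusion pool and 10272 in the sham pool (1.71-fold). Rps29, a zinc-binding small subunit protein, had 30855 (IRI) and 18252 (sham), a 1.69-fold difference, and its 3 probe sets lay between 0.54 and 0.78 in log2 difference. Rps27, a zinc finger protein of the small subunit, had 1811 (IRI) and 1151 (sham), 1.57-fold higher. Rps15, whose tail reaches towards the decoding site, was at the low end, with 10377 after renal ischaemia-reperfusion and 8282 after sham surgery (1.25-fold), and both of its probe sets were higher.

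Rps6, the small subunit protein phosphorylated by S6 kinases, was the only gene among the 43 with a lower signal. It had 592 in the renal ischaemia-reperfusion pool and 668 in the sham pool, a log2 difference of -0.17. The median signals over the 43 genes were 13093 (IRI) and 8282 (sham). Rps6 was thus read by a dim probe set, and its direction is less certain than that of brighter members. Its other probe set was under the array median in both pools (113.8 IRI, 156.9 sham). Rps25, whose protein some viral RNAs use to recruit ribosomes, went the other way at a similarly modest signal, with 537 (IRI) and 201 (sham). The sham signal was under the array median, so Rps25 was at least 2.03-fold higher. Both genes are read here only by probe sets of the unmodified _at type.

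On the large subunit, the stalk was prominent. The stalk recruits elongation factors, and its base protein Rplp0 had a signal of 20683 in the renal ischaemia-reperfusion pool and 10032 in the sham pool, 2.06-fold higher. Its partner Rplp2 had 11902 (IRI) and 6013 (sham), 1.98-fold higher. Rpl12, which binds beside the stalk, had 589.9 (IRI) and 463 (sham), 1.27-fold higher. Both measured P proteins were thus near 2-fold. Rpl12 was at the low end of the large subunit, but it is read by 1 plain _at probe set of modest signal. The median signals of large subunit genes measured on both arrays were 12477 (IRI) and 6959 (sham).

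Rpl35, which sits at the rim of the exit tunnel, had 8396 after renal ischaemia-reperfusion and 3473 after sham surgery by its brightest probe set (2.41-fold). Rpl41, the smallest ribosomal protein, had 14217 (IRI) and 4749 (sham), 2.99-fold higher. Its second probe set past the filter had 9992 in the renal ischaemia-reperfusion pool and 6267 in the sham pool, a log2 difference of 0.67 in place of 1.58. The size of the Rpl41 difference is therefore set by which probe set reads it, while both are higher.

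Rpl11, which with Rpl5 can bind Mdm2 and stabilise p53, had 8461 in the renal ischaemia-reperfusion pool and 6308 in the sham pool (1.34-fold). Rpl39, a small protein inside the exit tunnel, had 1866 (IRI) and 1589 (sham), 1.17-fold higher. Rpl22, an RNA-binding protein near the tunnel exit, had 11718 after renal ischaemia-reperfusion and 9893 after sham surgery (1.18-fold). These 3 were among the large subunit genes with small differences.

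By place on the ribosome, median log2 differences ranged from 0.42, for Rpl11 as the only measured protein of its ribonucleoprotein with Rpl5, to 0.98, and the ranges of the larger groups overlapped. The 3 measured stalk genes had a median of 0.98, the 5 at the mRNA exit and platform of the small subunit 0.73, the 4 at the tunnel rim 0.53 and the 4 at mRNA entry and decoding 0.49. Every measured member of these groups was higher, as were 44 of all 47 members past the filter, so the direction does not set the groups apart. The 6 measured genes that are mutated in human Diamond-Blackfan anaemia had a median of 0.67, from Rpl11 at 0.42 to Rps19 at 1.27. All 6 were higher (background 49.3%).

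**Figure D3:**
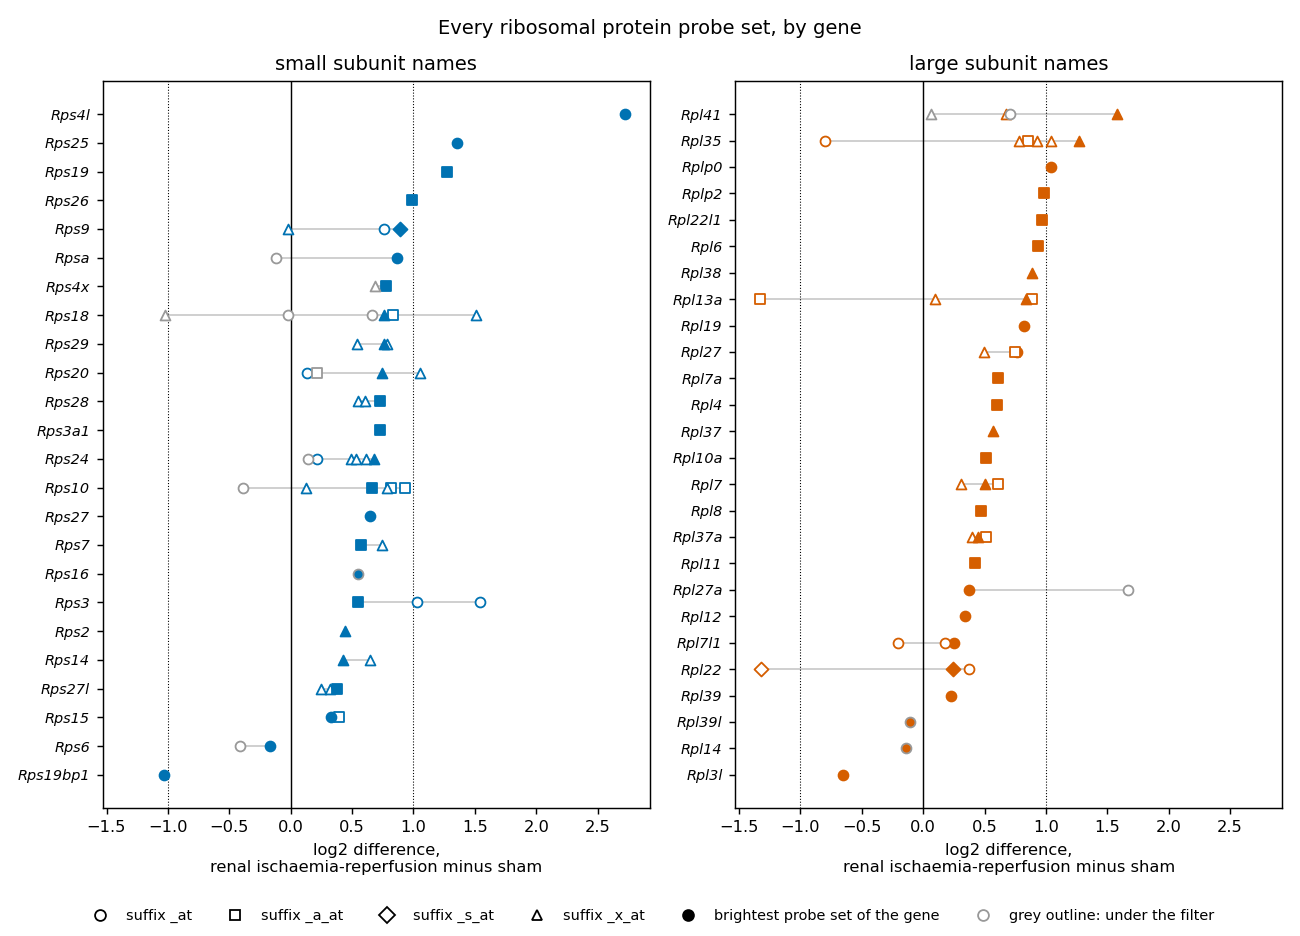
Log2 difference (renal ischaemia-reperfusion minus sham) of all 106 probe sets, by gene, for small subunit names (left) and large subunit names (right). Filled symbols are the brightest probe set of a gene, symbol shape gives the suffix, grey outlines are probe sets under the filter, and Rpl13a, Rpl22 and Rpl35 have 1 probe set far to the left of the others.

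Of the 7 members that are paralogues or that are not ribosomal proteins, 6 passed the filter, and 4 of these were higher (background 49.3%), with a median of 0.31. The 3 measured on both arrays were all higher, with a median of 0.38. Rpl22l1, the paralogue of Rpl22, had 5078 in the renal ischaemia-reperfusion pool and 2592 in the sham pool (1.95-fold higher), against 1.18-fold for Rpl22 itself. Rps27l, a paralogue of Rps27 and a known p53 target, had 13030.0 (IRI) and 10027 (sham), 1.30-fold higher, and its 3 probe sets lay between 0.25 and 0.38. Rpl22l1 was thus among the higher members and Rps27l among those that differed little.

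The others were dim. Rps4l, named as like Rps4, had 325 in the renal ischaemia-reperfusion pool and 35.6 in the sham pool, so it was at least 1.25-fold higher, though the measured log2 difference was 2.72. Rpl3l, the muscle form of Rpl3, had 160.3 (IRI) and 261 (sham) and was at least 1.03-fold lower. Rps19bp1, a protein that binds Rps19, had 233 after renal ischaemia-reperfusion and 494 after sham surgery and was at least 1.89-fold lower. Rpl7l1, an Rpl7 relative that acts in ribosome assembly, had 1099 (IRI) and 922 (sham), 1.19-fold higher, and its 3 probe sets differed in sign (-0.20 to 0.25). Without the paralogues and others, 40 of 41 genes past the filter were higher (background 49.3%), with a median of 0.68.

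Affymetrix suffixes state how specific a probe set is. A plain _at set should match 1 transcript, _a_at matches several transcripts of 1 gene, _s_at can match several genes, and some probes of an _x_at set can match unrelated sequences. Ribosomal protein genes have many processed pseudogenes with near-identical sequence, so cross-hybridisation is a particular concern, and values from _x_at and _s_at sets are uncertain. Of the 106 probe sets, 40 were _x_at, 3 _s_at, 28 _a_at and 35 plain _at.

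Among the 91 probe sets past the filter, 83 were higher in the renal ischaemia-reperfusion pool (91.2%, against 49.9% of all 25443 probe sets), 11 at least 2-fold higher (background 10.1%) and 3 at least 2-fold lower (background 10.5%). The 37 _x_at sets had a median log2 difference of 0.62, the 27 _a_at sets 0.72, the 3 _s_at sets 0.24 and the 24 plain _at sets 0.35. The same suffixes over all probe sets past the filter stood at 0.07, 0.10, 0.03 and -0.02. Plain _at sets of the members were thus 0.25 lower than their _x_at and _s_at sets, and 19 of 24 were higher.

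Signal strength differed between the suffixes as well. The median of mean log2 signal was 9.33 over the plain _at sets and 13.13 over the _x_at and _s_at sets. Among member probe sets with both signals at or above 1000, a limit chosen after seeing the data, the 8 plain _at sets had a median of 0.71 and all 8 were higher, and the 37 _x_at and _s_at sets had a median of 0.64. Across suffixes, 69 of 70 such probe sets were higher (98.6%, against 53.1% of all probe sets this bright), 7 at least 2-fold higher (background 7.18%) and 0 at least 2-fold lower (background 7.37%). The 8 plain _at sets included those of Rplp0, Rpl19, Rpl27, Rpsa and Rps15. Rpl19, a large subunit protein that bridges to the small subunit, had 13093 in the renal ischaemia-reperfusion pool and 7399 in the sham pool (1.77-fold). Rpl27, another large subunit protein, had 12677 (IRI) and 7436 (sham), 1.70-fold higher, with all 3 probe sets higher.

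**Figure D4:**
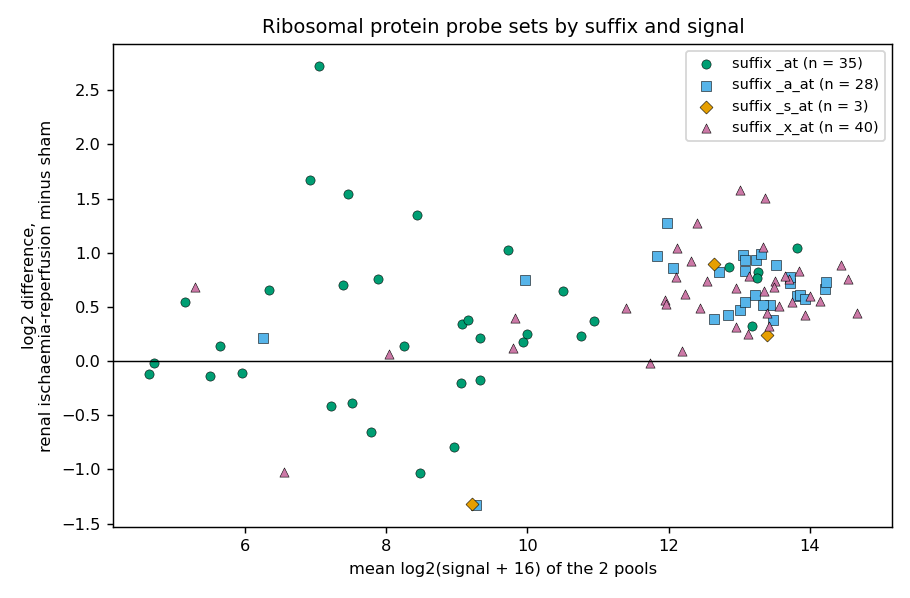
Log2 difference (renal ischaemia-reperfusion minus sham) of 106 ribosomal protein probe sets against their mean log2 signal, with colour and shape for the suffix. Plain _at sets make up most of the dim points, which scatter on both sides of 0, and sets of all suffixes lie above 0 at high signal.

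Probe sets of the same gene mostly had the same direction. Of 20 member genes with more than 1 probe set past the filter, 15 had all of them higher, where 28.0% of the 5028 genes with more than 1 such probe set did. The SD between probe sets of a member gene was 0.49, and 0.25 among sets with both signals at or above 1000, against 0.72 and 0.35 over all genes. In the other 5 genes, Rpl7l1, Rps9, Rpl13a, Rpl22 and Rpl35, 1 probe set pointed down.

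The last 3 of these carried a sharply lower probe set of modest signal. Rpl13a, a large subunit protein also known from an interferon-induced complex that represses translation, had 377 in the renal ischaemia-reperfusion pool and 969.7 in the sham pool by an _a_at set. By its brightest set, of type _x_at, it had 19567 (IRI) and 10970.2 (sham). For Rpl22, an _s_at set gave 361 after renal ischaemia-reperfusion and 922 after sham surgery, opposite to its other sets at 0.24 and 0.37. For Rpl35, its plain _at set gave 364 (IRI) and 644 (sham), while its 5 other sets were between 0.78 and 1.27. Averaging all probe sets of each gene brought Rpl13a to 0.12, Rpl35 to 0.68 and Rpl22 to -0.23.

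Other genes of the translation machinery are given for comparison, as counts by measured signal beside the 8.71% of 13117 genes past the filter that were at least 2-fold higher and the 9.59% that were at least 2-fold lower. Of 47 ribosomal protein genes, 6 were higher and 1 lower by this measure, and of the 43 measured on both arrays 4 were higher and 0 lower. Of 76 mitochondrial ribosomal protein genes, 3 were higher and 3 lower, and of the 74 measured on both arrays 2 were higher and 2 lower, with a median of 0.04 in either case. The mitochondrial extremes were Mrps11 (at least 1.03-fold higher) and Mrps27 (at least 2.17-fold lower). Elongation factors and other mRNAs with a TOP tract had a median of 0.66 over 11 genes, the same as the 0.66 of the ribosomal proteins. All 11 were higher (background 49.3%), from Eef1d (0.10) to Eef1b2 (1.22). Fau, whose product is cleaved to a small subunit ribosomal protein, stood at 0.66.

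The initiation factor list was taken by symbol, so its 34 genes also include Eif4ebp1, Eif4ebp2 and Eif4enif1, which are not initiation factors themselves. The list had a median of 0.53, from Eif4a2 (-1.32) to Eif1a (2.51). In it 6 genes were at least 2-fold higher, Eif4ebp1 among them, and 1 lower. All 34 were measured on both arrays. For 29 ribosome assembly genes the median was 0.73, and 12 were higher and 1 lower by measured signal, from Bysl (-1.20) to Rrp12 (at least 1.09-fold higher). For the 23 assembly genes measured on both arrays the median was 0.60, with 8 higher and 1 lower. The assembly list spread over 1.13 between its quartiles, and the ribosomal proteins over 0.44.

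**Figure D5:**
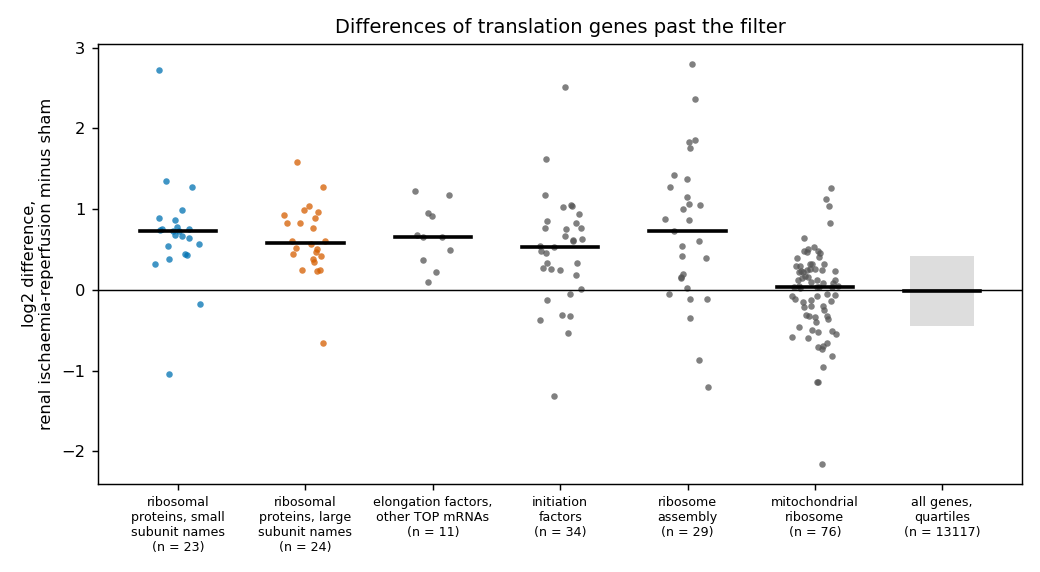
Log2 differences (renal ischaemia-reperfusion minus sham) of genes past the filter in 6 lists, each point 1 gene and each black line a median, beside the quartiles of all 13117 genes as a grey bar. Ribosomal proteins of both subunits, with medians of 0.72 and 0.58, lie with the cytosolic translation lists, and the mitochondrial ribosome has a median of 0.04.

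Members with and without the promoter features, as found around annotated starts, differed little. The 23 genes past the filter with a pyrimidine tract had a median of 0.68 and the 18 without one 0.59. The 20 genes with CCGGAAG had a median of 0.74 and the 21 without it 0.61. As the windows above show, Rpl35 (1.27) and Rps6 (-0.17) both hold a tract, and Rplp0 (1.04) holds none by this search. The annotated starts may not be the starts used in liver. Members without a tract by this search may still have TOP mRNAs, so these medians do not compare TOP mRNAs with others.

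The liver identity of both pools was clear, and most hepatocyte markers were themselves higher after renal ischaemia-reperfusion. The 8 hepatocyte markers summed to 414259 (IRI) and 285428 (sham), with a median log2 difference of 0.48 and 7 of 8 higher. They ranged from 299 to 85966 (IRI) and from 272 to 49596 (sham). Cps1 was the lower one, with 15307 (IRI) and 33265 (sham). Fgb was the most higher, with 85966 (IRI) and 35738 (sham). Markers of other cells moved beside the ribosomal proteins too. Pancreatic acinar markers, 8 of 10 measured, summed to 13446 (IRI) and 5141 (sham), with all 8 higher, a median of 1.87, and a range from 356 to 2945 (IRI) and from 18.5 to 1977 (sham). Markers of bile duct cells, 4 of 5 measured, summed to 2453 (IRI) and 653 (sham), with 3 of 4 higher, and Krt7 was under the median in both pools (32.0 IRI, 81.3 sham). Neutrophil markers, 6 of 7 measured, had a median of 0.54 with 5 of 6 higher, and a median of 0.37 over the 5 past the filter. S100a8 stood at 1407 (IRI) and 45.6 (sham), and Elane was lower, at 1016 (IRI) and 1384 (sham). The sham signals of S100a8 and S100a9 were under the array median, so the sizes of their differences are uncertain. The same holds for the acinar markers Ctrb1, Cpa1 and Pnliprp1 and the bile duct markers Krt19 and Epcam. The size of the acinar median is therefore uncertain too. Medians were near 0 for endothelial (0.08, 3 of 5 higher), lymphocyte (0.05, 4 of 7 higher) and kidney tubule markers (0.01, 4 of 7 higher), and in the endothelial list Lyve1 stood apart at 2741 (IRI) and 327 (sham). Of 3 erythroid markers 2 were higher, with a median of 0.61, and a median of 0.03 over the 2 past the filter. Alas2, the brightest of them, was lower, at 1927 (IRI) and 2828 (sham). Of 6 macrophage markers 2 were higher, with a median of -0.37. No marker was listed at 0. The part of any of these cells in the ribosomal protein differences was not tested.

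The size of the shift rests on the scaling. The deposited arrays share a trimmed mean, while every one of 18 bacterial hybridisation control probe sets read higher in the renal ischaemia-reperfusion pool (median 0.28). Scaled to those controls instead, the median over all genes moved to -0.30, and 756 genes were at least 2-fold higher and 2016 lower (27.3% of such genes higher), in place of 1143 and 1258 (47.6%). The ribosomal protein median was then 0.38 and 41 of 47 genes were higher, where 31.6% of all genes were under this scaling. Rpl22, Rpl39 and Rpl7l1 changed sign to between -0.06 and -0.03. This scaling moves every gene by the same amount, so the distance of 0.68 from the median of all genes is fixed. By quantile normalization the median was 0.48 and 44 of 47 genes were higher (background 49.4%).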

How the data were processed

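Per the labels' protocols, biotin-labelled cRNA was made from 6 ug of total RNA of each pool. The deposited intensity values are linear signals per probe set. Trimming 2% from either end leaves a mean of 500.0 in both pools, so the authors had scaled them. Summarising software and background correction were not given in the sources used here. Of 45037 probe sets that are not controls, 34945 had 1 gene in the platform annotation, which can be old, and 34741 of these symbols were updated by Entrez ID. Values were log2 of the signal plus 16, which understates the differences of dim genes. A gene was read by its brightest probe set past the filter. The number of arrays limits the precision. A bound sets the brighter signal against the dim array's median, each plus 16.

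Named were all members at least 2-fold higher or lower, the 8 highest and 8 lowest, those with probe sets past 0.5 in both directions, paralogues, a fixed panel and the ends of other lists; further members illustrate positions or suffixes and were picked with values known. Members and lists were chosen with earlier results of these data known. Promoters came from RefSeq (GRCm38.p6). Steps were tested on simulated data. Python 3.11.15, pandas 2.3.3 and statsmodels 0.14.6 were used. Alternatives covered pseudocount, scaling, filter, probe set choice, suffix, threshold and membership.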

Additional observations from a re-analysis of the deposited data

Results flagged for a closer look

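A signal appeared in probe sets that the comparisons above do not use. The annotation of 110 probe sets names a gene of the chosen symbols together with other genes, mostly pseudogenes, and 31 further ribosomal protein symbols occur only there, so no gene can be named from them. Of these, 96 passed the filter, with a median log2 difference (renal ischaemia-reperfusion minus sham) of 0.70, and 88 of 96 were higher, where 49.9% of all probe sets past the filter were. By 2-fold or more, 7 were higher (background 10.1%) and 1 lower (background 10.5%). Where both signals were at or above 1000, 82 of 83 were higher (background 53.1%), with a median of 0.73. Many of them may read the same transcripts as the members, so they are not independent of them.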

How the results depend on the processing

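No paired analysis was possible because each group is 1 pool on 1 array. Across 14 alternatives, the median log2 difference of the ribosomal protein genes stayed above 0, from 0.38 with the hybridisation controls as the reference to 0.70 on the probe sets that name several genes. Under the 13 of these that keep the subunits apart, the gap between subunits (small minus large) lay between 0.04 and 0.16. With the hybridisation controls as the reference, 3 in place of 6 genes were at least 2-fold higher (background 5.76% in place of 8.71%). At a 1.5-fold threshold 27 of 47 genes were higher (background 18.7%) and 2 lower, where 2536 of all 13117 genes were lower. At a 3-fold threshold 1 was higher and 0 lower, and the share over all genes was not counted. That gene was Rps4l, whose bound is only 1.25-fold. The count of genes at least 2-fold lower, 1 as reported, was 0 with a pseudocount of 64, with both signals at or above the array median, with a filter at the 75th percentile and without the paralogues and others; the last 3 leave out Rps19bp1. The gap between plain _at sets and _x_at and _s_at sets, -0.25 as reported, reversed to 0.065 among sets with both signals at or above 1000, a limit added after seeing the data. For the 22 named genes, 235 of 270 alternative values lay within 0.2 of the reported one, and 3 genes took another sign in at least 1 alternative. Signals near or under the array median limit Rps4l, Rps25, Rpl3l and Rps19bp1 to bounds.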

Other observations

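Some partners of the ribosome differed more than its proteins. Among assembly factors, Tsr1, which helps mature the small subunit, was at least 5.04-fold higher in the renal ischaemia-reperfusion pool, Eif6, which keeps the subunits apart, had signals of 7338 after renal ischaemia-reperfusion and 2020.0 after sham surgery (3.61-fold), and Nhp2, a protein of pseudouridylation complexes, had 3454 (IRI) and 962 (sham), 3.55-fold higher. Ncl, nucleolin, was 2.68-fold higher. Paralogues of the helicase that unwinds mRNA at initiation went opposite ways: Eif4a1 had 13035 in the renal ischaemia-reperfusion pool and 5763 in the sham pool (2.26-fold higher), and Eif4a2 had 2918 (IRI) and 7309 (sham), 2.50-fold lower. Eif4ebp1, the mTORC1 target that binds Eif4e and keeps the initiation complex from forming, had 5053 (IRI) and 1627 (sham), 3.09-fold higher, while Eif4ebp2 had 2483 (IRI) and 3597 (sham), 1.45-fold lower. Tsr1, Eif6, Nhp2, Ncl and the Eif4a and Eif4ebp genes were singled out after their values were seen.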
